A study of Homo sapiens with 18 samples.

Results

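The mitochondrial ribosomal protein genes were described in H2052 mesothelioma cells, as all genes of the count table whose symbol is MRPL or MRPS followed by a number (and, for MRPS, a letter A to C). The rule found 75 genes among 30954 gene IDs. Of these, 48 encode proteins of the large subunit of the mitochondrial ribosome and 26 encode proteins of the small subunit, while MRPS36, despite its symbol, encodes a subunit of the oxoglutarate dehydrogenase complex. MRPS30 and MRPS18A, also despite their symbols, belong to the large subunit. NCI-H2052 (H2052) is a human pleural mesothelioma cell line with mutations in the Hippo pathway genes NF2 and LATS2, which all groups share. RNA-seq counts were available for NF1 mutant cells given 1 µM VT107 for 24 hours, NF1 mutant cells given DMSO, parental cells given VT107 and parental cells given DMSO, with 3 libraries per group and 12 in all. VT107 blocks the palmitoylation of the TEAD transcription factors. NF1 encodes a negative regulator of RAS, and the NF1 mutant cells were a population selected after transduction with Cas9 and a guide RNA, so they can hold a mixture of alleles. Which guide was used is not given in the sources used here.

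Mitochondria translate the few messages of their own genome, which encode core subunits of the respiratory chain and of ATP synthase, on ribosomes whose RNAs come from mitochondrial DNA and whose proteins are all made from nuclear genes and imported. The protein set mixes relatives of bacterial ribosomal proteins with proteins found in mitochondria alone. Among the members, 45 have a bacterial counterpart and 29 are specific to mitochondria. The factors NRF1, GABP (an ETS family factor) and YY1 are known regulators of many nuclear genes for mitochondrial proteins.

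Promoters were matched for 66 of the 75 members in RefSeq (GRCh38.p14), as the 250 bases before and 50 after the annotated start. The ETS letters CCGGAAG, searched on both strands as were all motifs, stood in 28 of the 66 member promoters (42.4%), against 10.7% of 27305 promoters of all genes. The YY1 letters AAGATGGCG stood in 13 (19.7%), against 1.85%, and the NRF1 letters GCGCATGC in 6 (9.09%), against 3.27%. The E-box CACGTG stood in 6 (9.09%), against 7.43%, and the TEAD letters CATTCC in 10 (15.2%), against 14.0%. Among the promoters of the 7991 genes expressed here at the minimum used below, the shares were 20.0% for ETS, 4.35% for YY1, 5.76% for NRF1, 10.4% for the E-box and 10.8% for TEAD. Matches overlapped each other in 1 member promoter, and a match describes the sequence only. The promoters of the 2 members that rose with the smallest adjusted p and of the 2 members that fell in NF1 mutant cells are shown as examples. Capitals mark every motif match on either strand.
MRPL22 promoter (GRCh38.p14, chr5:154940823-154941122, plus strand): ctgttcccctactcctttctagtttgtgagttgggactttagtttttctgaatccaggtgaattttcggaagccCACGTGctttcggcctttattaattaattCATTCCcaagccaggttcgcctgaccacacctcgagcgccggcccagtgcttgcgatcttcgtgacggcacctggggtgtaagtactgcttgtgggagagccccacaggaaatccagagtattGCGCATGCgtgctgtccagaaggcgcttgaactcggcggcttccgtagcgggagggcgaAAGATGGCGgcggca
MRPS21 promoter (GRCh38.p14, chr1:150293611-150293910, plus strand): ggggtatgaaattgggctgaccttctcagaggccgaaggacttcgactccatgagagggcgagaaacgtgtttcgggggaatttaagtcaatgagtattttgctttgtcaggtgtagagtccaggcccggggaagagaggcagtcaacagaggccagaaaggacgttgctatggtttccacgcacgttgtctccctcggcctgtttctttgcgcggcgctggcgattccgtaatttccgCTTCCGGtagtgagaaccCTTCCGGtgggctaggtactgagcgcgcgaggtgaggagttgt
MRPS31 promoter (GRCh38.p14, chr13:40771141-40771440, minus strand): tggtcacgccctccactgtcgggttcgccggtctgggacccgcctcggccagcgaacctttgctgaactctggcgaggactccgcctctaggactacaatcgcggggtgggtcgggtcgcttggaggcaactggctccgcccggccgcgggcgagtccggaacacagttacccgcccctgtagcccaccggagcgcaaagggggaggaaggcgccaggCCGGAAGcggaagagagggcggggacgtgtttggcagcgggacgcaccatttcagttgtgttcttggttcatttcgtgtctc
MRPL54 promoter (GRCh38.p14, chr19:3762432-3762731, plus strand): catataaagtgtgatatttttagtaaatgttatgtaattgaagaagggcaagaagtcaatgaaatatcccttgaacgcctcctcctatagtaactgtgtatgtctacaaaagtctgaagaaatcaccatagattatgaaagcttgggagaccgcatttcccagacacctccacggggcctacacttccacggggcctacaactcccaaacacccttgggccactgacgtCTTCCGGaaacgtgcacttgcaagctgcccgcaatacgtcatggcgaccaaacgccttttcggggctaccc
The MRPL22 promoter held a match to each of the E-box, TEAD, NRF1 and YY1 letters. The MRPS21 promoter held 2 ETS matches, both on the reverse strand, while those of MRPS31 and MRPL54, the members that fell, held 1 each. Promoters were matched for 15 of the 18 members that rose in NF1 mutant DMSO cells (12.5% of all genes tested rose), and of these 5 held an ETS match, 4 a TEAD match, 3 a YY1 match, 1 an NRF1 match and 1 an E-box match. Whether these shares differ from those of the other members was not tested.

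Library totals were 3285363 to 4806065 counts in NF1 mutant VT107 libraries, 3988479 to 5489092 in NF1 mutant DMSO libraries, 12424914 to 13346712 in parental VT107 libraries and 10950284 to 13418485 in parental DMSO libraries. The NF1 mutant libraries were thus the shallower ones, and the table names the libraries of the 2 genotypes differently, so genotype and library set cannot be told apart. NF1 itself had 12.5, 17.1 and 17.8 CPM (counts scaled to library size) in NF1 mutant DMSO cells, against 67.1, 61.7 and 34.1 CPM in parental DMSO cells. CTGF, a YAP and TEAD target, had 30.1, 27.1 and 27.0 CPM in parental VT107 cells, against 62.9, 69.6 and 94.4 CPM in parental DMSO cells (log2 fold change -1.41, adjusted p = 0.916, edgeR quasi-likelihood test). The fit of the parental cells with the replicate number as a block called 1.67% of genes, against 0% without it. Keratin genes KRT8, KRT18 and KRT19 and the mesothelial gene WT1 were expressed in all 12 libraries, and summed mesothelial markers ranged from 2303 to 7800 CPM, while CALB2 reached at most 8.22 CPM and KRT5 was at 0. Of the 9 markers on that list, 6 reached the minimum in all DMSO libraries, and MSLN, PDPN and UPK3B are not given singly here. Of the 6 leukocyte markers, 5 reached at most 1.44 CPM each, and the sum of 9.4 to 29.0 CPM came mostly from CORO1A. The nuclear noncoding RNAs MALAT1 and NEAT1 together made up 336 to 413 CPM in NF1 mutant DMSO libraries, against 4655 to 9370 CPM in parental DMSO libraries, and their part in the genotype differences was not tested.

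Summed over the 75 members, transcript levels in DMSO were higher in NF1 mutant than in parental cells. The sum was 6413, 6823 and 6494 CPM in NF1 mutant DMSO libraries, against 5391, 5378 and 5714 CPM in parental DMSO libraries. No NF1 mutant DMSO library overlapped with a parental DMSO library. With VT107 the sum was 7480, 6220 and 6215 CPM in NF1 mutant libraries, against 5035, 6602 and 5252 CPM in parental libraries, and these groups overlapped through parental VT107 replicate 2. CPM here used edgeR's TMM scaling. On library totals alone, the VT107 sums were 6030, 6399 and 6460 CPM in NF1 mutant libraries, against 5399, 5952 and 5487 CPM in parental libraries, with no overlap. NF1 mutant VT107 replicate 1, the highest library under TMM, was thus the lowest of its group on library totals, and its TMM factor (0.806) was the smallest of the 12. Large-subunit members summed to 3809, 3949 and 3873 CPM in NF1 mutant DMSO libraries, against 3318, 3335 and 3368 CPM in parental DMSO libraries. Small-subunit members summed to 2589, 2857 and 2598 CPM in NF1 mutant DMSO libraries, against 2049, 2017 and 2325 CPM in parental DMSO libraries. In bulk RNA, a change in the makeup of the cells cannot be told apart from a change in RNA per cell.

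**Figure D1:**
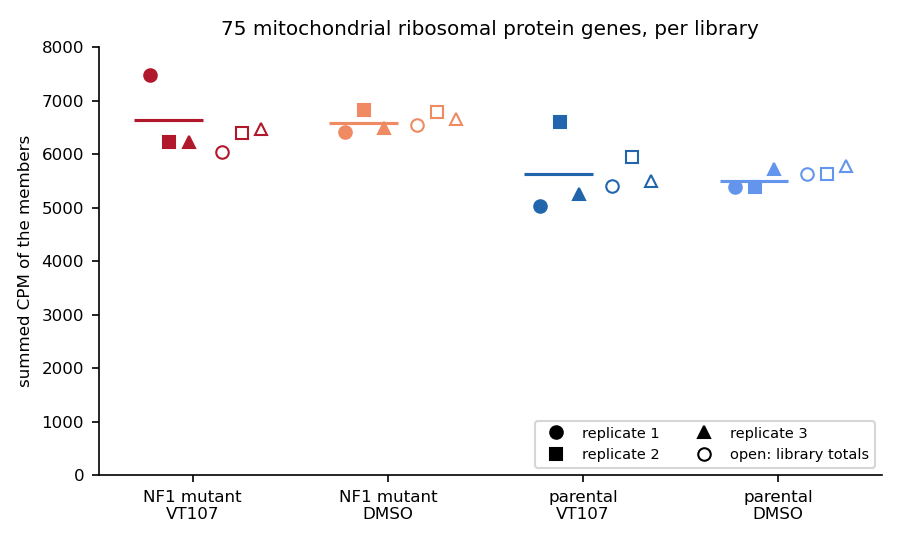
Summed CPM of the 75 members in each library by group, with filled points for TMM-scaled CPM, bars for their means and open points for CPM on library totals (marker shape, replicate). The 3 NF1 mutant DMSO libraries lie between 6413 and 6823 CPM, above the 3 parental DMSO libraries, and NF1 mutant VT107 replicate 1 (7480 CPM) and parental VT107 replicate 2 (6602 CPM) are the highest TMM-scaled points of their groups.

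To ask whether NF1 mutation altered these genes without drug, NF1 mutant and parental cells in DMSO were compared with edgeR's quasi-likelihood test and Benjamini-Hochberg adjustment over the 12475 genes that reached 0.5 CPM, taken on library totals, in all 6 libraries. Of 75 members tested, 18 rose and 2 fell at an adjusted p under 0.05. Over all genes tested, 12.5% rose and 14.9% fell (27.4% called), so the members' rises exceeded that background share and their falls did not reach it. The log2 fold change was positive for 53 members (48.9% of all genes) and its unadjusted p was under 0.05 for 35 (40.5% of all genes). Its median was 0.24, against -0.01 over all genes. By subunit, 12 of 48 large-subunit members rose and 1 fell, and 6 of 26 small-subunit members rose and 1 fell. Of the members with a bacterial counterpart, 11 of 45 rose and none fell (23 had an unadjusted p under 0.05), while of those specific to mitochondria 7 of 29 rose and 2 fell. The values of all 3 NF1 mutant libraries lay above all 3 parental libraries for 32 members and below them for 9, where 22% and 22.5% of all genes did so.

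**Figure D2:**
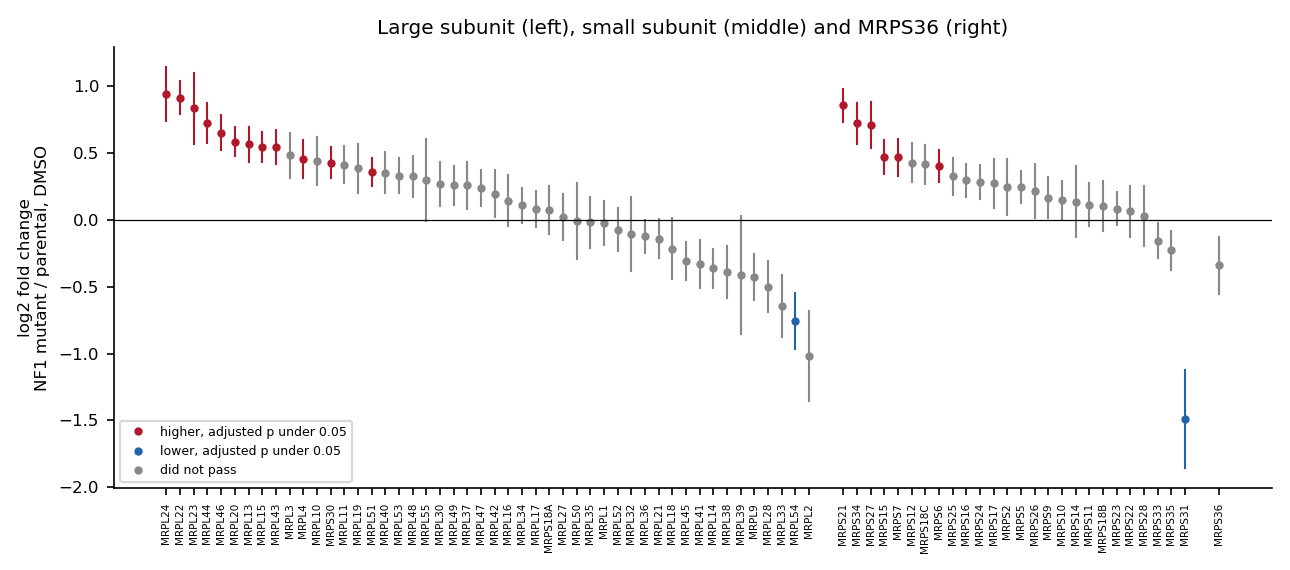
Log2 fold change of each member (NF1 mutant over parental cells, DMSO) with 1 standard error on either side, ordered by size within the large subunit, the small subunit and MRPS36. Points for 18 members that rose and 2 that fell at an adjusted p under 0.05 are coloured, and most grey points also lie above 0.

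In the large subunit, MRPL24, MRPL22, MRPL23 and MRPL44 rose the most. MRPL24, a relative of bacterial L24, had 203, 210 and 218 CPM in NF1 mutant DMSO cells, against 90.3, 91.2 and 149 CPM in parental DMSO cells. The groups did not overlap, although parental replicate 3 stood well above the other parental libraries (log2 fold change 0.94, standard error 0.20, adjusted p = 0.00932, edgeR). MRPL22, which lines the tunnel through which the new protein leaves, had 115, 117 and 105 CPM in NF1 mutant DMSO cells, against 58.7, 56.8 and 64.5 CPM in parental DMSO cells, with the smallest adjusted p of all members (log2 fold change 0.91, standard error 0.12, adjusted p = 0.00130, edgeR). MRPL23, at the exit of that tunnel, had 23.4, 31.5 and 28.6 CPM in NF1 mutant DMSO cells, against 13.6, 11.5 and 22.1 CPM in parental DMSO cells. The gap between the nearest libraries was small (log2 fold change 0.83, standard error 0.26, adjusted p = 0.0453, edgeR). MRPL44, a mitochondria-specific protein with an RNase III-like fold, had 35.1, 32.4 and 35.2 CPM in NF1 mutant DMSO cells, against 19.3, 20.8 and 22.5 CPM in parental DMSO cells. Replicates differed little in either group (log2 fold change 0.72, standard error 0.15, adjusted p = 0.00861, edgeR). In the authors' build, hg19, MRPL24 lies at chr1:156707095-156711382 and MRPL22 at chr5:154320630-154348971.

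In the small subunit, MRPS21 and MRPS34 rose the most. MRPS21, a relative of bacterial S21, had 156, 176 and 156 CPM in NF1 mutant DMSO cells, against 99.1, 90.5 and 82.0 CPM in parental DMSO cells. Every NF1 mutant library exceeded every parental library by more than the spread within groups (log2 fold change 0.86, standard error 0.13, adjusted p = 0.00177, edgeR). The annotation holds 8 pseudogenes named after MRPS21, and reads could be shared with them. MRPS34, which is specific to mitochondria, had 212, 242 and 187 CPM in NF1 mutant DMSO cells, against 114, 125 and 153 CPM in parental DMSO cells (log2 fold change 0.72, standard error 0.16, adjusted p = 0.00984, edgeR). The other members that rose were MRPS27, MRPL46, MRPL20, MRPL13, MRPL15, MRPL43, MRPS15, MRPS7, MRPL4, MRPS30, MRPS6 and MRPL51, with log2 fold changes between 0.36 (MRPL51) and 0.71 (MRPS27). MRPS11 lies within the span of MRPL46 on the opposite strand, and MRPL20 overlaps 3 genes known by clone name only, 1 of them on its own strand, so their counts may mix.

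The members that fell were both specific to mitochondria. MRPS31 had 3.92, 3.33 and 7.82 CPM in NF1 mutant DMSO cells, against 15.5, 17.5 and 8.95 CPM in parental DMSO cells. Replicate 3 of each group nearly met (log2 fold change -1.49, standard error 0.37, adjusted p = 0.0179, edgeR), and 4 pseudogenes carry its name. MRPL54 had 14.1, 23.3 and 16.4 CPM in NF1 mutant DMSO cells, against 28.4, 30.8 and 32.0 CPM in parental DMSO cells, without overlap (log2 fold change -0.76, standard error 0.21, adjusted p = 0.0271, edgeR).

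**Figure D3:**
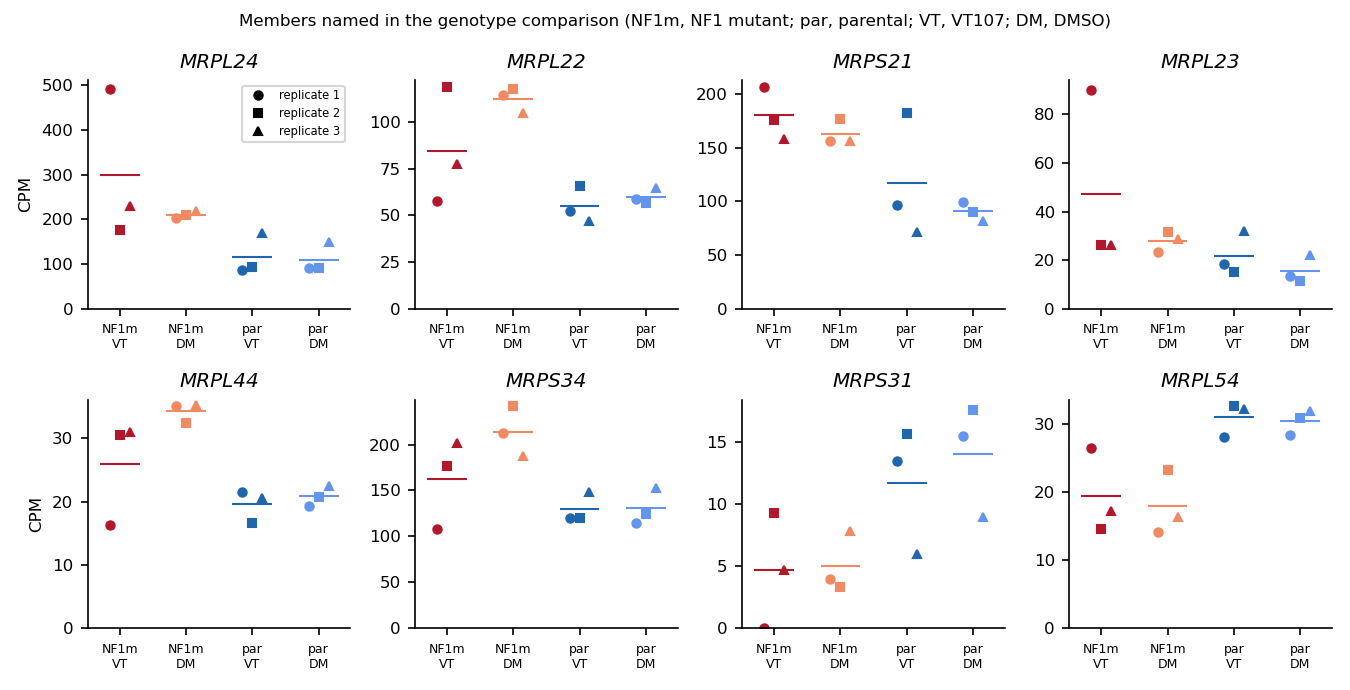
CPM in each library of the 6 members with the largest rise and of the 2 that fell between NF1 mutant and parental DMSO cells, with bars for group means and marker shape for replicate. In NF1 mutant VT107 replicate 1, MRPL24 reached 491 CPM and MRPS31 was at 0 CPM, outside the other 2 libraries of that group.

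MRPS12, MRPL45, MRPS36 and the MRPS18 paralogs did not pass the test. MRPS12, part of the decoding centre, had 83.7, 104 and 90.2 CPM in NF1 mutant DMSO cells, against 65.1, 63.5 and 79.3 CPM in parental DMSO cells (log2 fold change 0.43, adjusted p = 0.0616, edgeR). MRPL45, which links the large subunit to the inner membrane, had a log2 fold change of -0.31 (adjusted p = 0.142, edgeR). MRPS36, the subunit of oxoglutarate dehydrogenase, had one of -0.34 (adjusted p = 0.266, edgeR). The MRPS18 paralogs are related to a single bacterial protein, S18, and only MRPS18C is counted above as having a bacterial counterpart. MRPS18C had 80.8, 88.6 and 87.3 CPM in NF1 mutant DMSO cells, against 68.2, 72.2 and 53.2 CPM in parental DMSO cells (log2 fold change 0.42, adjusted p = 0.0633, edgeR). MRPS18B and MRPS18A had log2 fold changes of 0.10 and 0.07, within 1 standard error of 0. MRPL12 was absent from the count table under that symbol, so the rule did not take it.

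How many members were called depended on single libraries and on the kind of fit. Without parental DMSO replicate 3, 34 members rose and 12 fell, where 24.7% of all genes rose and 26.3% fell. Without any other single library the count was lower, with 12 members called without parental replicate 1, 10 without parental replicate 2, and 9, 10 and 11 without NF1 mutant replicates 1, 2 and 3. The shares of all genes called in those fits are not given here, so the lower counts are not read as a result about the members. MRPL15, MRPL20, MRPL22, MRPL24, MRPL44, MRPL46 and MRPS21 were called, all higher, in each of these 6 fits. How many of all genes were called in each of the 6 was not counted, so this list is not read as a result about the members. With all 4 groups in 1 fit, where the VT107 libraries also enter the spread, none of the 71 members tested was called (8.42% of genes were, edgeR). MRPS31, which fell in the main fit, did not reach the minimum there, and why the others were not called was not tested. On the DMSO libraries, DESeq2 called 23 members (29.6% of genes) and limma's voomWithQualityWeights 47 (52.5% of genes).

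With VT107, the comparison of NF1 mutant with parental cells gave no call. No gene of 11654 passed the edgeR test (0%), and of 71 members tested 5 had an unadjusted p under 0.05, where 16.7% of all genes did. The members tested are those that reached 0.5 CPM on library totals in all 6 libraries. MRPL32, MRPL16, MRPS31 and MRPL39 were left out because NF1 mutant VT107 replicate 1 held 2, 2, 0 and 0 counts of them. The log2 fold change was above 0 for 40 of the 71 (48.7% of all genes), with a median of 0.15, against -0.02 over all genes. By unadjusted p the leading members were MRPL24, MRPL46 and MRPL43. MRPL24 had 491, 176 and 229 CPM in NF1 mutant VT107 cells, against 87.6, 92.9 and 170 CPM in parental VT107 cells, without overlap (log2 fold change 1.32, standard error 0.47, adjusted p = 0.222, edgeR). MRPL46 had 96.9, 45.5 and 42.8 CPM in NF1 mutant VT107 cells, against 29.8, 34.5 and 22.8 CPM in parental VT107 cells (log2 fold change 1.06, adjusted p = 0.251, edgeR). MRPL43 had 131, 88.0 and 87.0 CPM in NF1 mutant VT107 cells, against 56.9, 65.2 and 58.4 CPM in parental VT107 cells (log2 fold change 0.73, adjusted p = 0.285, edgeR). In each case NF1 mutant replicate 1 was the highest library. By voomWithQualityWeights, which gives discordant libraries less weight, 8 members rose and 9 fell (13.5% and 17.6% of genes). Without NF1 mutant VT107 replicate 1 and the parental replicate 3 libraries, an alternative chosen after seeing the data that leaves 2 libraries a group, 9 members rose and 9 fell (13.5% and 16.8% of genes, edgeR). In this fit 12% of members rose and 12% fell, so neither share exceeded that of all genes. Of these 18 members, 11 were also among the 20 called in DMSO, and the same overlap over all genes was not counted. MRPL24 was then called (log2 fold change 1.16, adjusted p = 0.000376, edgeR).

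To ask whether TEAD inhibition altered the members, VT107 was compared with DMSO within each genotype. In parental cells no gene of 12891 was called by edgeR (0%). None of the 75 members was called, none had an unadjusted p under 0.05 (3.68% of genes had), and none was called by DESeq2, by voomWithQualityWeights or with the replicate block. With the block 1.67% of genes were called, and the shares for DESeq2 and voomWithQualityWeights are not given here. The log2 fold changes of the members ran from -0.28 (MRPL4) to 0.50 (MRPL23) with a median of 0.02, against 0.01 over all genes, with 42 above 0 (51.8% of all genes). The VT107 and DMSO libraries overlapped for all 75 members, where 4.26% of all genes were higher and 6.39% lower without overlap. MRPL48, a large-subunit protein, had the smallest p, with 33.0, 47.2 and 32.6 CPM in parental VT107 cells, against 33.4, 28.3 and 29.3 CPM in parental DMSO cells (log2 fold change 0.33, interval of 2 standard errors -0.07 to 0.73, adjusted p = 0.999, edgeR). VT107 replicate 2 was the highest library. MRPS36 (0.48, interval -0.17 to 1.13) and MRPL53 (0.28, interval -0.14 to 0.71) followed, and for each of them VT107 replicate 2 was again the highest library. In that library 8 members stood more than 1 log2 unit above the mean of the other 2 parental VT107 libraries, led by MRPL33 with 236 CPM, against 129 and 57.5 CPM in replicates 1 and 3. The same library summed to 206429 CPM of cytosolic ribosomal protein transcripts and 24338 CPM of nuclear respiratory chain and ATP synthase (OXPHOS) transcripts, where the other 2 parental VT107 libraries lay at 109135 to 113101 CPM and 13387 to 14108 CPM.

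In NF1 mutant cells, VT107 and DMSO libraries likewise gave no call among 11605 genes (0%, edgeR), and none of the 71 members tested had an unadjusted p under 0.05 (5.27% of genes had). The log2 fold change was above 0 for 31 of the 71 (51.7% of all genes), with a median of -0.10, against 0.02 over all genes. MRPS18C had the smallest p, with 63.2, 67.5 and 59.4 CPM in NF1 mutant VT107 cells, against 80.8, 88.6 and 87.3 CPM in NF1 mutant DMSO cells. The groups did not overlap, but the difference did not pass over all genes (log2 fold change -0.43, standard error 0.21, adjusted p = 0.774, edgeR), nor without VT107 replicate 1 (-0.41, adjusted p = 0.160, edgeR). MRPL27 had 243, 106 and 136 CPM in NF1 mutant VT107 cells, against 104, 117 and 93.6 CPM in NF1 mutant DMSO cells, a difference carried by VT107 replicate 1 (log2 fold change 0.61, and 0.21 without that library). MRPL50 had 4.02, 6.88 and 4.39 CPM in NF1 mutant VT107 cells, against 7.14, 7.33 and 8.56 CPM in NF1 mutant DMSO cells (log2 fold change -0.57, adjusted p = 0.774, edgeR). In 8 members all VT107 libraries lay below all DMSO libraries and in none above, where 8.58% and 7.42% of all genes did so. Without VT107 replicate 1, all 75 members could be tested and none was called, while 1.59% of genes were. CTGF was among those (log2 fold change -1.69, adjusted p = 0.000255, edgeR). No member was called by DESeq2 or by voomWithQualityWeights, whose shares of all genes called are not given here.

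The difference of the VT107 responses between NF1 mutant and parental cells was tested as an interaction over all 12 libraries. No gene of 11432 was called (0%, edgeR), and no member had an unadjusted p under 0.05 (0.682% of genes had). The largest differences were -0.94 for MRPL50 (interval of 2 standard errors -1.97 to 0.10), 0.92 for MRPS18B (-0.13 to 1.97) and -0.92 for MRPL36 (-2.19 to 0.35). Each interval holds a difference of 1 log2 unit or more. MRPS18B had 369, 101 and 178 CPM in NF1 mutant VT107 cells and 110, 143 and 130 CPM in NF1 mutant DMSO cells, with 95.2, 99.8 and 123 CPM in parental VT107 cells and 105, 100 and 153 CPM in parental DMSO cells. Without NF1 mutant VT107 replicate 1 its difference was 0.30. The difference was above 0 for 30 of 71 members (52.4% of all genes). Its median over the members was -0.14, and without parental VT107 replicate 2 it was 0.07.

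**Figure D4:**
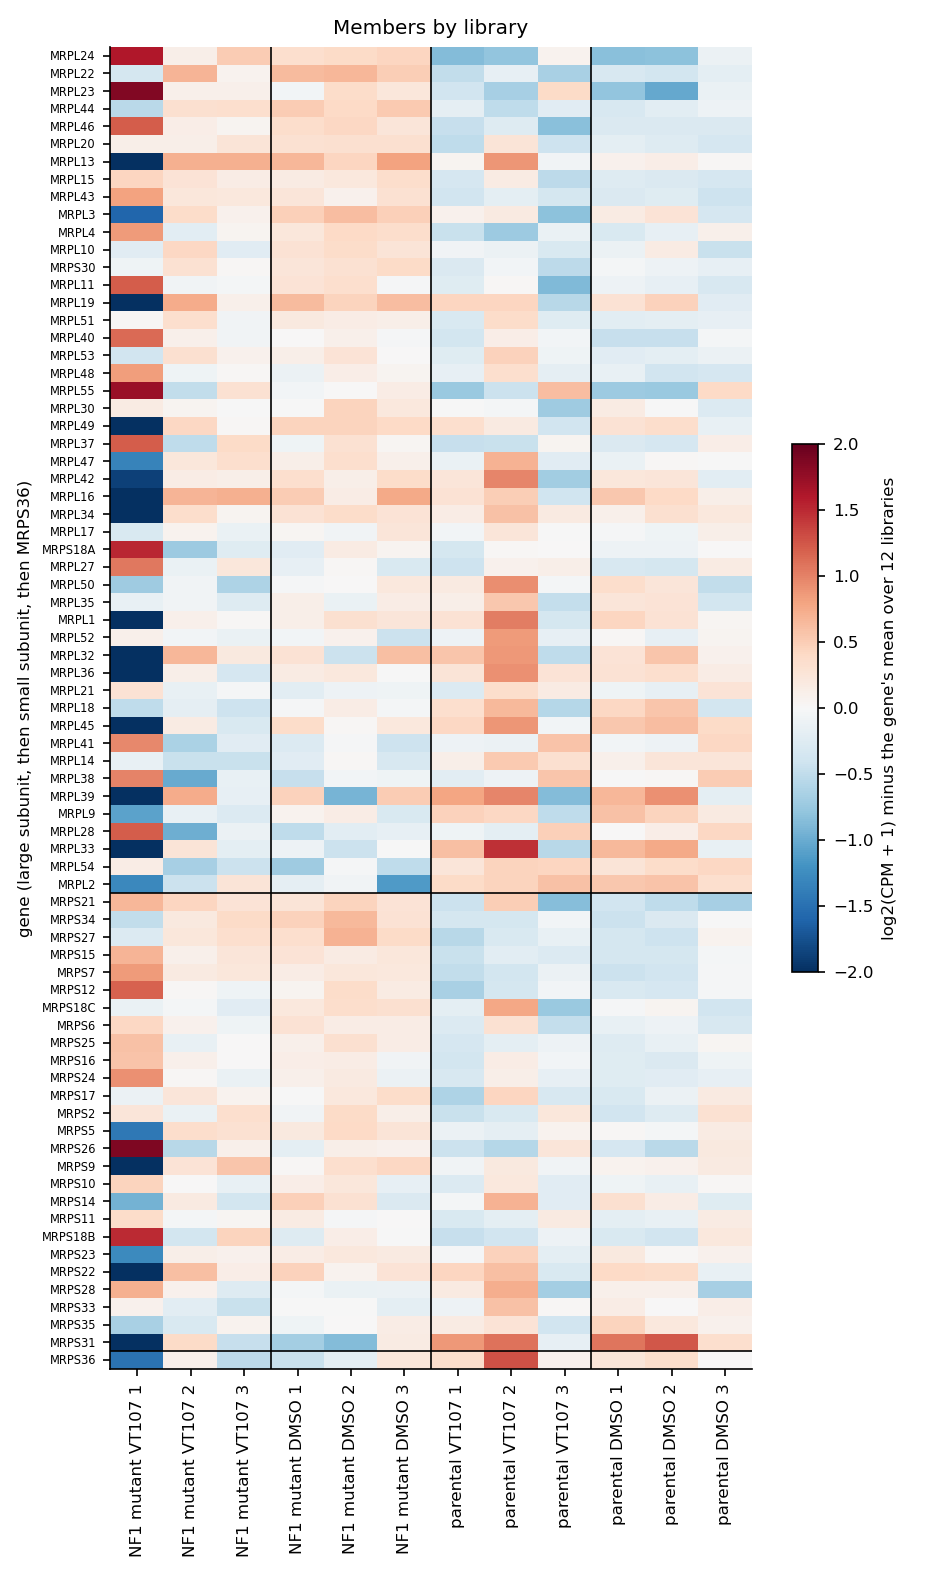
Log2(CPM + 1) of each member in each library minus the member's mean over the 12 libraries, with colours limited to -2 and 2 and members ordered within subunits by the DMSO genotype difference. NF1 mutant VT107 replicate 1 holds the strongest colours of either sign, and parental VT107 replicate 2 is high for many members in the lower part of each subunit.

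The libraries that drove these spreads were found by setting each library against the mean of the other 2 of its group. In NF1 mutant VT107 replicate 1, 15 members lay more than 1 log2 unit above and 21 more than 1 below, 48.0% of the members, where 46.3% of all genes lay that far off. MRPS26, a small-subunit protein, had 347 CPM there, against 64.5 and 102 CPM in replicates 2 and 3. MRPL13 had 4.02 CPM, against 177 and 177 CPM, and MRPL16 had 2 counts, against 233 and 164 counts. MRPL39 and MRPS31 had 0 counts, against 56 and 19 counts of MRPL39 and 46 and 16 counts of MRPS31. That library thus held some members at several times the level of its replicates and lacked others almost wholly. Parental VT107 replicate 2 had 8 members above by that measure and none below (10.7%, against 5.29% of all genes). Parental VT107 replicate 3 had 1 above and 10 below (14.7%, against 18.1% of all genes), and parental DMSO replicate 3 had 1 above (MRPL55) and 1 below (MRPL39; 2.67%, against 11.1% of all genes), both below the share of all genes. No NF1 mutant DMSO library and no other parental library had more than 2 members that far off. NF1 mutant VT107 replicates 2 and 3, whose comparison mean holds replicate 1, had 17 and 14 members above and 8 and 0 below (33.3% and 18.7%, against 21.8% and 14.2% of all genes).

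In most libraries these deviations moved with the base composition of the transcripts. For the 73 members with an annotated transcript under their ID, GC was taken over the last 400 bases. In NF1 mutant VT107 replicate 1, of the 27 members with the highest GC (47.5% to 67.0%), 14 lay more than 1 log2 unit above the other replicates and 2 more than 1 below. Of the 25 with the lowest GC (27.25% to 39.25%), none lay that far above and 12 that far below. Spearman's rho between GC and deviation was 0.58 across these members and 0.49 across 11159 expressed genes, which share a library and are not independent. In NF1 mutant VT107 replicates 2 and 3 it was -0.66 and -0.39 across members. In parental VT107 replicates 1, 2 and 3 it was -0.41, -0.70 and 0.75, and in parental DMSO replicates 1, 2 and 3 it was -0.64, -0.62 and 0.68. Deviations within a group are not independent, since each library enters the means of the others. In NF1 mutant DMSO libraries it ran from -0.27 to 0.52. Between log2 fold change and GC across members, rho was 0.09 for the genotype comparison in DMSO, 0.44 for that with VT107 (69 members), 0.61 for VT107 in NF1 mutant cells (69 members) and -0.11 for VT107 in parental cells. The median GC was 44.0% in 17 of the 18 members that rose in NF1 mutant DMSO cells, against 43.5% in the other 56. The part of GC in each of these results was not tested.

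**Figure D5:**
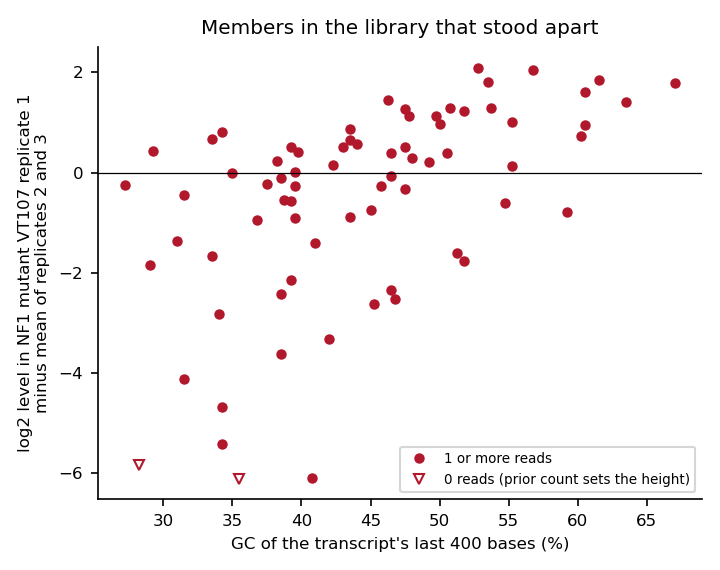
For each of 73 members, GC of the last 400 bases of its transcript (x axis, %) against the log2 level in NF1 mutant VT107 replicate 1 minus the mean of replicates 2 and 3 (y axis), with open triangles for members with 0 counts, whose height is set by the prior count. Points rise from left to right (Spearman's rho 0.58), and the members far below 0 have mostly low GC.

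Other genes of mitochondrial gene expression were taken from 5 lists chosen with earlier results known. Between NF1 mutant and parental cells in DMSO, 8 of their 74 genes rose (10.8%) and 7 fell (9.46%), below the 12.5% and 14.9% of all genes tested. Of 7 mitochondrial ribosome proteins under other symbols, 1 rose. This was CHCHD1, a small-subunit protein, with 126, 115 and 138 CPM in NF1 mutant DMSO cells, against 70.5, 63.2 and 59.9 CPM in parental DMSO cells (log2 fold change 0.98, adjusted p = 0.00111, edgeR). Of 23 assembly factors 2 rose and 1 fell. RBFA, which acts in small-subunit maturation, had 34.6, 30.4 and 26.9 CPM in NF1 mutant DMSO cells, against 13.2, 14.7 and 13.4 CPM in parental DMSO cells (log2 fold change 1.16). DDX28, a helicase of large-subunit assembly, rose by 0.77, and MRM1, a methyltransferase of mitochondrial ribosomal RNA, fell by 1.67 on the log2 scale. Of 15 translation factors 2 rose and 2 fell. The recycling factor MRRF (0.96) and the inner membrane insertase OXA1L (0.58) rose, while C12orf65, a rescue factor (-1.14), and LRPPRC, which stabilises mitochondrial messages (-0.61), fell.

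Of 17 genes for transcription and RNA processing in mitochondria, 3 rose and 2 fell. SLIRP, the partner of LRPPRC, rose (0.68), as did HSD17B10, a subunit of mitochondrial RNase P (0.86), while the RNA-degrading enzymes PNPT1 (-1.23) and SUPV3L1 (-1.67) fell. Of 12 messages of the mitochondrial genome, none rose and 2 fell, MT-ND2 (-0.73) and MT-CO3 (-0.48). Of 12 regulators tested, ESRRA (0.59), PPRC1 (0.80) and MYC (0.88) rose and YY1 fell (-0.61), while NRF1 had a log2 fold change of 0.35 (adjusted p = 0.229, edgeR) and GABPA one of -1.14 (adjusted p = 0.183, edgeR). Set beside the members, 22 of 81 cytosolic ribosomal protein genes rose (27.2%) and 9 fell (11.1%), with a median log2 fold change of 0.11, and 23 of 75 nuclear OXPHOS genes rose (30.7%) and 1 fell (1.33%), with a median of 0.25. Over all genes tested, 12.5% rose and 14.9% fell. The members' median of 0.24 was thus close in value to that of OXPHOS genes, and the difference between the lists was not tested.

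Features of position that the choice by symbol did not use were counted beside those of all expressed genes. A gene starting within 1000 bases on the opposite strand, head to head, was annotated for 18 of 75 members (24.0%) and for 14.3% of 11432 expressed genes. Another gene overlapped 38 members (50.7%, against 51.3% of expressed genes), for 13 of them on the same strand (17.3%, against 16.9%). Strand use in counting is not given in the sources used here, so reads of such pairs, like MRPL46 and MRPS11, may be split between them. By name, 70 annotated pseudogenes belong to 33 members (44.0%, where 11.7% of the expressed genes had a pseudogene found by symbol, a share that misses genes renamed between annotations). Mean levels in parental DMSO cells ran from 7.34 CPM (MRPL2) to 276 CPM (MRPL21), on a scale not corrected for length, so levels are not compared between members.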

How the data were processed

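RNA from 12 H2052 libraries (polyA RNA, Trizol) was sequenced by the authors, whose deposited table holds raw read counts per gene, in hg19 by the labels. The submitters' processing notes name bcl2fastq 2.20.0.422. The table has 31017 rows, of which 63 repeated IDs were summed. An siRNA table with 16 columns and the H226 libraries were not used here. The study describes the replicates as biological, the labels name no separate cultures, and p-values measure the spread between these libraries. Aligner, counter and annotation release: not given in the sources used here.

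Counts were tested with edgeR 4.0.16 (TMM scaling, quasi-likelihood, R 4.3.3) after the study's minimum of 0.5 CPM, taken on library totals, in all libraries compared. P-values were adjusted by Benjamini-Hochberg over the genes tested, and calls were made under 0.05. CPM values printed are TMM-scaled unless said otherwise, and log2 CPM used a prior count of 1. Scripts were tested on simulated data. No libraries were duplicates. Alternatives were other size factors, library totals (chosen after seeing the data), other filters, DESeq2 1.42.0, limma 3.58.1 (voomWithQualityWeights), a replicate block, all groups in 1 fit and fits without single libraries. Same-numbered parental libraries deviated together (r 0.49 to 0.79 across genes). The main fits did not pair them, and pairing entered only through the replicate block as an alternative. Only replicate 3 stood apart, since VT107 replicates 1 and 2 correlated about as well with a differently numbered DMSO library (r 0.60 and 0.51), and the block changed no member's call there.

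GC came from GENCODE v29 transcripts by Ensembl ID. Promoters came from RefSeq. Named members were the 6 largest rises and falls called, the 3 smallest p where fewer than 3 were called, the MRPS18 paralogs, MRPL45, MRPS12 and MRPS36, and for other lists up to 4 genes by smallest p. NRF1 and GABPA were added after their values were seen, as were the members named for their deviation in single libraries. The members, lists and tests were chosen with earlier results of these data known.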

Additional observations from a re-analysis of the deposited data

How the results depend on the processing

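Counts of members called between NF1 mutant and parental cells in DMSO (20) ranged from 9 to 46 without 1 library, and were 46 without the replicate 3 libraries, 47 with voomWithQualityWeights and 0 with all 4 groups in 1 fit. The median log2 fold change of the members there ran from 0.156 to 0.270 without 1 library, and stayed above 0 in every alternative run. Between NF1 mutant and parental cells with VT107, the count of 0 became 17 with voomWithQualityWeights, 4 with all 4 groups in 1 fit and 18 without NF1 mutant VT107 replicate 1 and the parental replicate 3 libraries, and stayed at 0 in the others. No alternative called a member for VT107 against DMSO or for the difference of the responses, whose median ran from -0.260 to 0.0699 without 1 library. In the genotype comparison with VT107, voomWithQualityWeights called 11.3% of members higher and 12.7% lower, against 13.5% and 17.6% of genes. The fit without NF1 mutant VT107 replicate 1 and the parental replicate 3 libraries called 12% and 12%, against 13.5% and 16.8% of genes. In neither fit did the members exceed all genes. The shares of all genes called are given for only some of the alternatives, and counts without them are not read as a result about the members. The replicate block gave 17 members in DMSO, 16 of them among the 20. Within NF1 mutant cells same-numbered libraries did not pair (r -0.21 to 0.16), nor did they between the genotypes (r -0.29 to 0.33). Log2 fold changes in DMSO turned sign, with none called, for MRPS18A, which ranged from -0.0147 to 0.190 without 1 library, MRPS18B (-0.0201 to 0.309) and GADD45GIP1 (-0.298 to 0.0392, the highest without the replicate 3 libraries). The cause was not tested. The smaller library totals of the NF1 mutant cells limit the precision for members with few counts.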
